A study of Mus musculus with 11 samples.

Results

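Immediate early and dissociation stress genes are transcribed within minutes of a signal or an injury, and their mRNAs also climb while a tissue is cut, digested and sorted into cells. The set described here was a list of 40 named genes, of which the 35 found by symbol among the 14739 genes of the deposited table are its members. Fosb, Maff, Egr3, Nr4a2 and Nr4a3 were not analysed here. Total RNA of cerebral microglia, sorted by their surface protein Tmem119 from old C57BL/6 mice straight into lysis buffer, was sequenced in bulk. Of the 11 libraries 3 were wild type (WT, 21 months old), 3 were Csf1r+/- (Csf1r_het, 20, 24 and 21 months for replicates 1, 2 and 3), 3 were Csf2+/- (Csf2_het, 21 months) and 2 were Csf1r+/-; Csf2+/- (Dhet, 21 and 24 months for replicates 1 and 2). Csf1r encodes the receptor on which microglia depend, and Csf2 encodes the cytokine GM-CSF. The series examines loss of a copy of either gene or of both. The labels leave out the duration and temperature of dissociation, the sex of the mice and whether any were pooled.

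The early response runs through a few layers. Kinases of the MAPK family and calcium signals act on factors already present in the cell, such as SRF and CREB, which switch on genes of the FOS, JUN, EGR, KLF and NR4A families. Their products are transcription factors, and other early genes encode the brakes of the same pathway: DUSP phosphatases that switch off MAPKs, IkB proteins and TNFAIP3 that restrain NF-kB, and ZFP36 and BTG proteins that speed the removal of mRNAs. In microglia these genes are known for the way they follow both inflammatory signals and the handling of the cells.

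Depth ranged from 21037819 reads in genes for Csf1r_het replicate 1 to 53081638 for Csf2_het replicate 2. Values are normalized counts, meaning reads rescaled by the size factor of their library, and 1 read was worth 0.479 to 1.48 of them. Csf1r_het replicate 2 stood apart, with 15.6% of genes at 0 against 4.98% to 9.88% elsewhere and 58.8% of its counts in haemoglobin genes against 16.1% to 40.2% elsewhere. Dhet replicate 2 held 717 normalized counts of the Y-linked gene Ddx3y and 4.02 of Xist, while the other libraries held at most 16.3 and at least 3011. The targeted gene Csf1r ran from 41261 to 93319 in WT and Csf2_het libraries and from 17017 to 40567 in Csf1r_het and Dhet libraries. Csf2 itself was not analysed here. The microglia markers P2ry12, Tmem119 and Sall1 were above 0 in every library. The 10 microglia markers summed to 118116 to 309573 in WT and 308685 to 362788 in Csf1r_het. Their sums were 454808 to 592216 in Csf2_het and 382646 to 479155 in Dhet. The 6 choroid plexus markers summed to 292034 to 632782 in WT and 813204 to 1452150 in Csf1r_het. Their sums were 771578 to 1125740 in Csf2_het and 236692 to 463761 in Dhet. Summed markers of monocytes, which can share early genes with microglia, ran from 81104 to 178649 in WT, 55712 to 63800.5 in Csf1r_het, 15163 to 23529 in Csf2_het and 59258 to 69290 in Dhet. Because these are bulk samples, fewer cells of a type and less RNA per cell cannot be told apart. Nothing in the labels says that replicates were separate mice or how they were processed, so p-values measure only the spread between these libraries, which may be technical.

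Most members were lower in the heterozygous groups than in WT, and 7 of the 35 passed the test against WT in at least 1 group, all of them downwards: Klf2, Dusp5, Btg1, Dusp1, Nr4a1, Ier2 and Mcl1. The best known markers of dissociation, Fos, Jun and Egr1, were not among them. A gene passed when its limma adjusted p was at most 0.05, with the adjustment over all 13223 genes tested, and all 35 members had the mean of 10 normalized counts needed for testing. In Csf1r_het 4 members fell and 0 rose, where 0.885% of all genes fell and 0.431% rose. Csf2_het had 7 that fell and 0 that rose, where 2.84% of all genes fell and 0.809% rose. In Dhet 2 fell and 0 rose, where 0.499% of all genes fell and 0.0303% rose. The median log2 fold change of the members was -0.74 in Csf1r_het, -0.87 in Csf2_het and -0.38 in Dhet, beside -0.12, -0.02 and 0.02 over all genes tested. Negative values were found in 32, 29 and 25 of the 35 members. The 3 comparisons share the WT libraries, so they are not independent of each other.

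Without a test, 17 members lay below all 3 WT libraries in every Csf1r_het library (12.8% of all genes did), 18 in every Csf2_het library (14.3% of all genes) and 12 in both Dhet libraries (12.6% of all genes). Above all WT libraries lay 0 members in Csf1r_het (8.61% of all genes), Rhob in Csf2_het (11% of all genes) and Egr2 and Ppp1r15a in Dhet (13.5% of all genes). In all 8 heterozygous libraries 9 members were below all 3 WT libraries, against 4.74% of all genes: Klf2, Nr4a1, Dusp2, Dusp5, Btg1, Mcl1, Nfkbia, Hspa1a and Hspa1b. The map of the members by library shows these 9, among other rows, with colour above the mean in the WT columns.

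**Figure D1:**
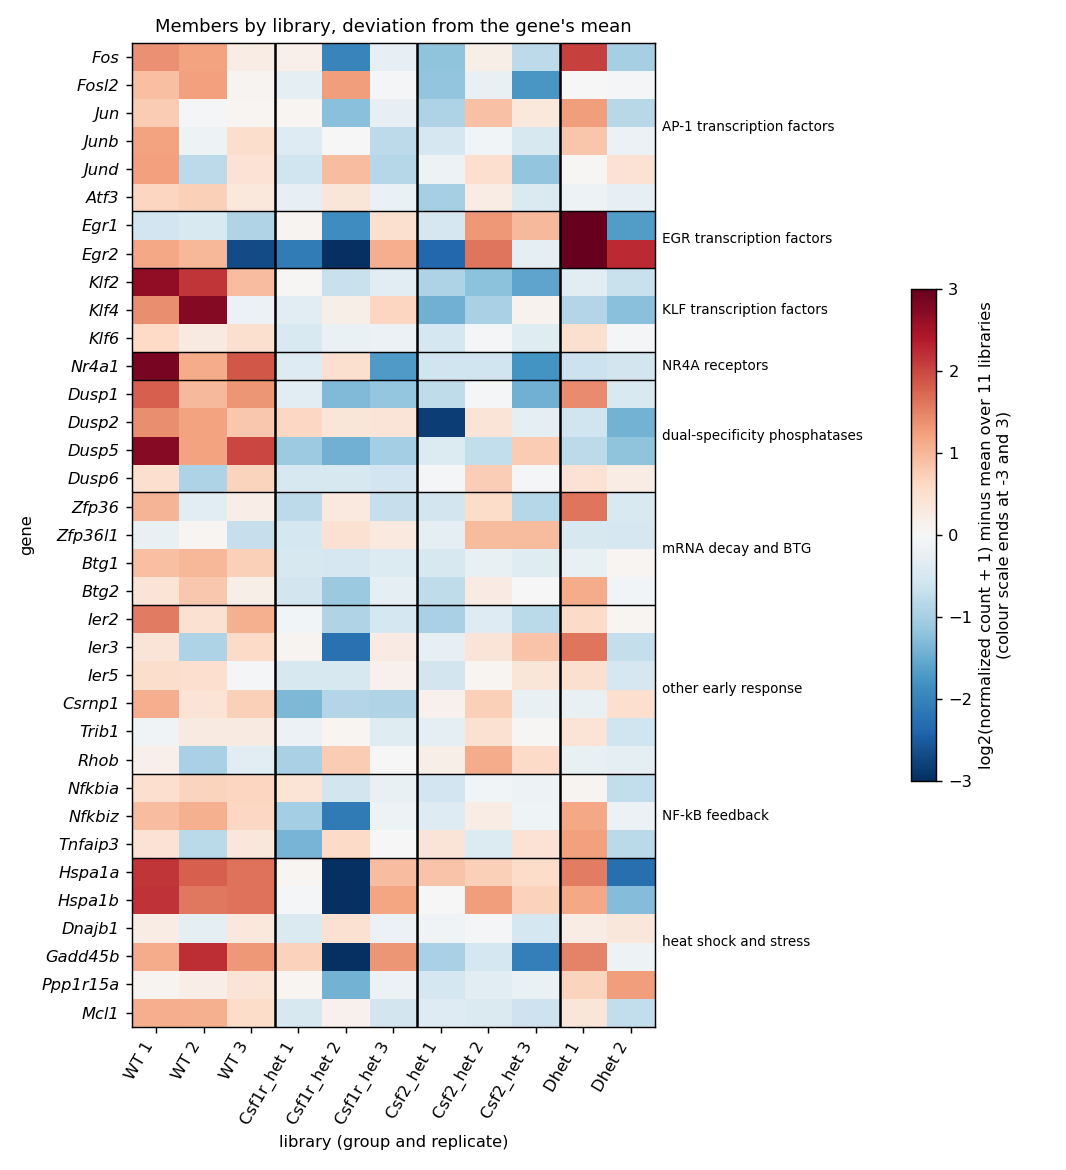
Each row is a member gene and each column a library, coloured by log2(normalized count + 1) minus the gene's mean over the 11 libraries, with red above and blue below that mean and rows grouped by role. WT replicate 1 holds the highest value of 14 members and Dhet replicate 1 that of 9, while Csf1r_het replicate 2 holds the lowest of 13.

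The libraries did not contribute evenly. WT replicate 1 was above the 11-library mean for 32 of the 35 members and WT replicate 2 for 25. Dhet replicate 1 was above it for 25 and Dhet replicate 2 for 8. Csf2_het replicate 1 was above it for 4. The calls in Csf1r_het rested on most libraries of the comparison: 0 members passed without WT replicate 1, Csf1r_het replicate 1, Csf1r_het replicate 2 or Csf1r_het replicate 3. Over all genes 0, 21, 38 and 0 passed in these fits, beside 174 with all libraries, so in the first and the last no gene of any kind passed. Dusp5 alone passed without Csf2_het replicate 2, Dusp5 and Klf2 without Csf2_het replicate 1, and 6 members without WT replicate 2. Over all genes 48, 53 and 442 passed in these fits. In Csf2_het the count was 1 (Klf2) without WT replicate 1 and 2 (Klf2 and Nr4a1) without Csf2_het replicate 1. It was 2 (Klf2 and Dusp5) without Csf2_het replicate 3 and 4 without Csf1r_het replicate 3. Without any other library of WT, Csf1r_het or Csf2_het it was 5 to 8. Over all genes 172, 173, 218 and 369 passed in the first 4 of these fits and 228 to 675 in the others, beside 482 with all libraries. In Dhet the count was 0 without WT replicate 1, Csf1r_het replicate 1, Csf1r_het replicate 3, Csf2_het replicate 1, Csf2_het replicate 2, Dhet replicate 1 or Dhet replicate 2. Over all genes 6, 42, 50, 44, 42, 2 and 174 passed in these fits, beside 70 with all libraries. Klf2 was lost there, with 1 member left, without WT replicate 2 or Csf2_het replicate 3, where 37 and 51 of all genes passed. Some settings with 0 calls kept at least 2 libraries in each group. In these, 10 to 16 members in Csf1r_het and 7 to 9 in Dhet had an unadjusted p under 0.05. Of all genes, 1474 to 1980 and 985 to 1430 did. edgeR on the recovered reads called 2, 5 and 0 members in Csf1r_het, Csf2_het and Dhet, and DESeq2 called 9, 9 and 5. Over all genes edgeR called 100, 458 and 26 and DESeq2 825, 1232 and 357, so the member counts moved with the counts over all genes. Beyond the limma calls, DESeq2 called Csrnp1, Ier2, Mcl1, Nfkbiz and Nr4a1 in Csf1r_het. It added Fosl2 and Klf4 in Csf2_het and Btg1, Klf4 and Nr4a1 in Dhet.

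**Figure D2:**
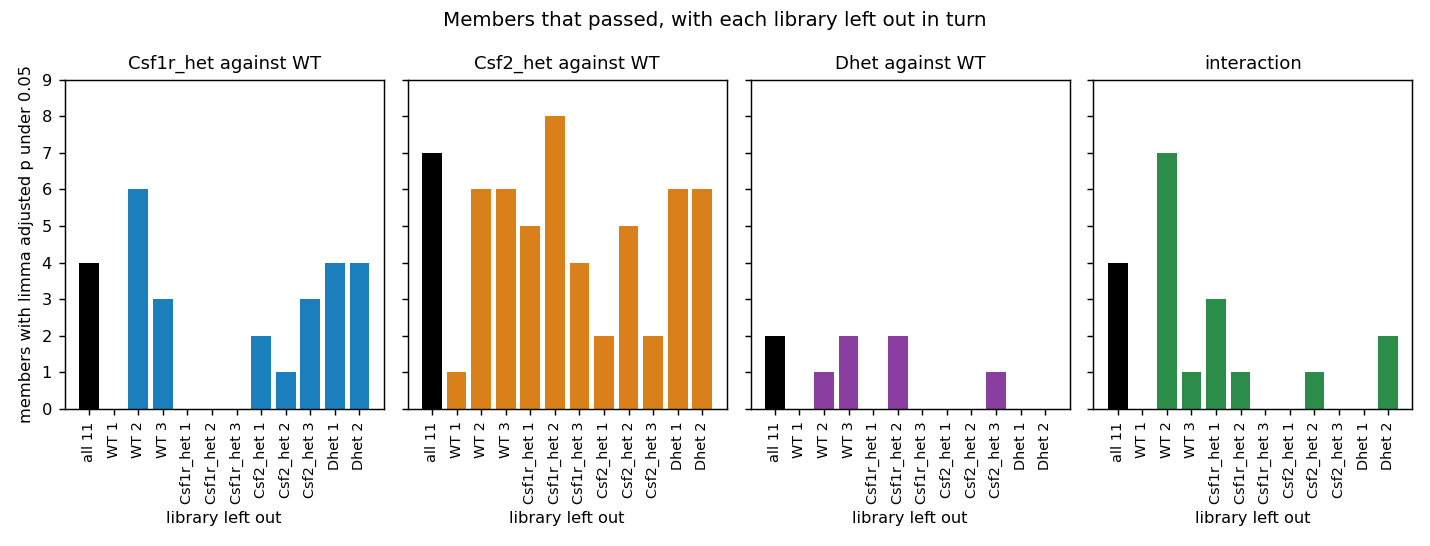
Bars give the number of members with a limma adjusted p under 0.05 with all 11 libraries (black) and with each library left out in turn (colour), for the 3 comparisons with WT and for the interaction of both copy losses. The Csf2_het bars stay between 1 and 8, while the Csf1r_het bars drop to 0 in 4 of 11 cases.

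The KLF factors are zinc finger proteins, of which KLF2 holds myeloid cells and endothelium in a quiescent state. Klf2 (ENSMUSG00000055148.7, mm10 chromosome 8, 72319033 to 72321656, forward strand) held 13972, 9672 and 4193 normalized counts in WT. It held 2249, 1390 and 1745 in Csf1r_het, 1156, 942 and 732 in Csf2_het and 1730 and 1387 in Dhet. Every heterozygous library was below every WT library, and the Csf2_het libraries were the lowest of all. Klf2 fell 4.70-fold in Csf1r_het (log2 fold change -2.23, SE 0.40, limma adjusted p = 0.0252), 8.92-fold in Csf2_het (-3.16, SE 0.40, limma adjusted p = 0.00115) and 5.34-fold in Dhet (-2.42, SE 0.45, limma adjusted p = 0.0353). The Csf2_het value was the only one of the 13 calls against WT to pass in each fit with 1 library left out and under each other alternative tried, with a highest adjusted p of 0.0195. Klf4, a close relative with roles in monocyte differentiation, was spread in WT (1586, 4064 and 531) and did not pass, with log2 fold changes of -1.16, -2.08 and -2.38. DESeq2 called Klf4 in Csf2_het and in Dhet, and so did limma without WT replicate 3. Klf6, a widely expressed injury-response factor, had 3595 to 4519 in WT, 2148 to 2632 in Csf1r_het and 2042 to 2854 in Csf2_het, which did not overlap, and it did not pass either (-0.73 and -0.77).

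Of the NR4A orphan nuclear receptors, which restrain inflammatory genes in macrophages, Nr4a1 (ENSMUSG00000023034.6, mm10 chromosome 15, 101266846 to 101274792, forward strand) was in the table. WT libraries held 7680, 2276 and 3846 normalized counts, Csf1r_het libraries 808, 1482 and 323, Csf2_het libraries 697, 699 and 302, and Dhet libraries 677 and 719. The groups did not overlap with WT. Nr4a1 fell 7.69-fold in Csf2_het (log2 fold change -2.94, SE 0.57, limma adjusted p = 0.0129). It did not pass in Csf1r_het (-2.48, SE 0.57, limma adjusted p = 0.0544) or in Dhet (-2.54, SE 0.64, limma adjusted p = 0.139), values whose sizes were close to that in Csf2_het. The call in Csf2_het was lost without WT replicate 1 (limma adjusted p = 0.0768) and without Csf2_het replicate 3. DESeq2 called Nr4a1 in all 3 groups.

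Dual-specificity phosphatases remove phosphates from MAPKs, and DUSP1, DUSP2, DUSP5 and DUSP6 are themselves induced by the kinases they switch off. Dusp5 (ENSMUSG00000034765.6, mm10 chromosome 19, 53529109 to 53542431, forward strand), a nuclear phosphatase of ERK, held 2175, 750 and 1306 normalized counts in WT. It held 153, 120 and 160 in Csf1r_het, 244, 194 and 549 in Csf2_het and 189 and 141 in Dhet. No heterozygous library reached the lowest WT library. Dusp5 fell 8.93-fold in Csf1r_het (log2 fold change -3.16, SE 0.52, limma adjusted p = 0.0179), 4.33-fold in Csf2_het (-2.11, SE 0.52, limma adjusted p = 0.0435) and 7.84-fold in Dhet (-2.97, SE 0.58, limma adjusted p = 0.0441). Without WT replicate 1 its adjusted p was 0.126, 0.202 and 0.253 in these groups.

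Dusp1 (ENSMUSG00000024190.6, mm10 chromosome 17, 26505590 to 26508519, reverse strand), which acts on p38 and JNK, set the Dhet libraries apart from each other. It held 3705, 2072 and 2664 normalized counts in WT, 841, 425 and 472 in Csf1r_het, 627, 1033 and 394 in Csf2_het, and 2844 and 777 in Dhet. Dhet replicate 1 was thus within the WT range, and the other 7 heterozygous libraries were below it. Dusp1 fell 4.94-fold in Csf1r_het (log2 fold change -2.31, SE 0.50, limma adjusted p = 0.0454) and 4.31-fold in Csf2_het (-2.11, SE 0.50, limma adjusted p = 0.0365). Neither call held without WT replicate 1 (limma adjusted p = 0.209 and 0.16). In Dhet it did not pass (-0.88, SE 0.56), and the value was -1.81 without Dhet replicate 1 and 0.06 without Dhet replicate 2. Dusp2, an ERK and p38 phosphatase of immune cells, was below WT (477 to 712) in all 8 other libraries (37.6 to 418) and did not pass in any group (-0.68, -2.04 and -2.14). Dusp6, a cytoplasmic ERK phosphatase, differed from these: it ranged from 1906 to 6068 over all libraries, WT spanned most of that range, and its log2 fold changes were -0.59, 0.14 and 0.25.

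**Figure D3:**
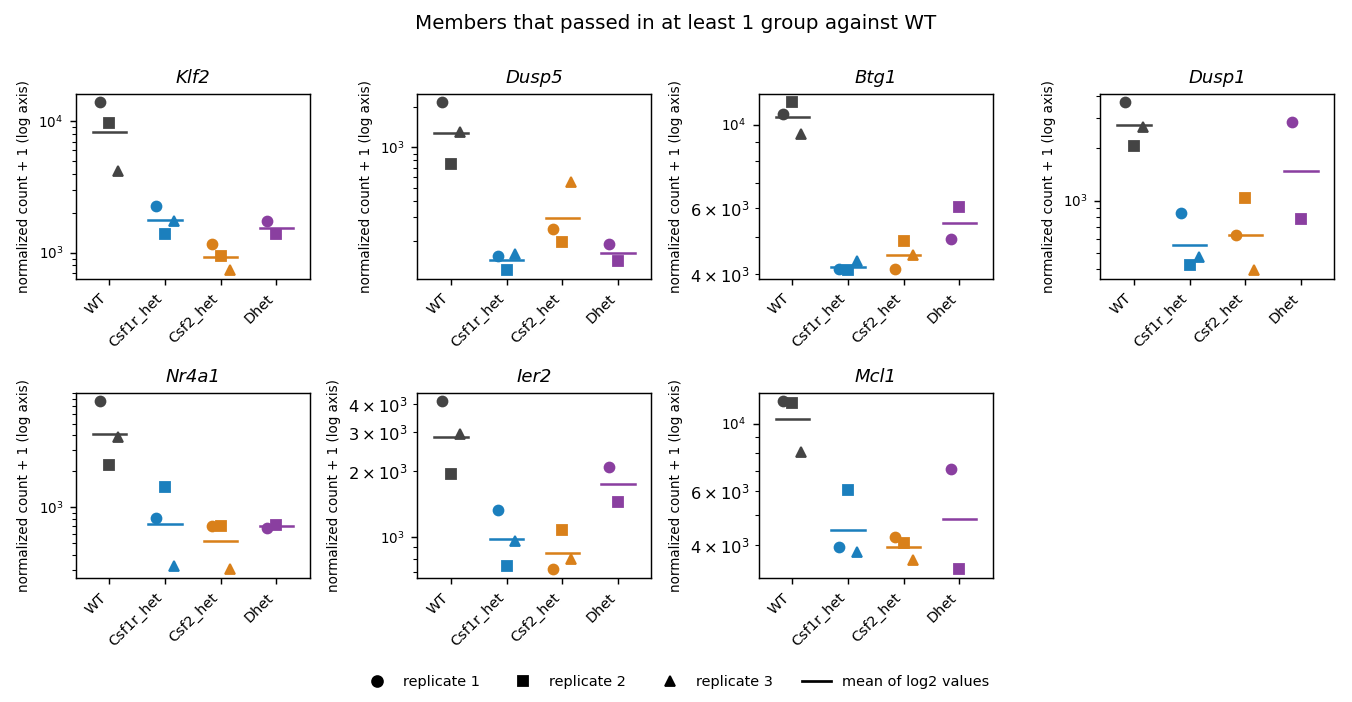
Points are libraries and bars the mean of log2 values, on a log axis of normalized count + 1, for the 7 members that passed in at least 1 group against WT. For Klf2, Dusp5, Btg1, Nr4a1 and Mcl1 all 8 heterozygous libraries sit below the 3 WT libraries, while for Dusp1 and Ier2 Dhet replicate 1 reaches the WT range.

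The letters ahead of the starts of members that fell were compared. RefSeq promoter windows of 300 bases, from 250 before to 50 after a start site on GRCm38.p6 (the assembly named mm10), were used for 31 members and 40 windows. The windows of 4 members that passed are given to show which motifs they hold. The GC box GGGCGG is in all 4, as it is in those of Klf2 and Mcl1, and is not capitalised. Capitals mark matches to the 6 other motifs searched, and motifs were searched on both strands.
Dusp5 promoter, chr19:53528895-53529194, forward strand: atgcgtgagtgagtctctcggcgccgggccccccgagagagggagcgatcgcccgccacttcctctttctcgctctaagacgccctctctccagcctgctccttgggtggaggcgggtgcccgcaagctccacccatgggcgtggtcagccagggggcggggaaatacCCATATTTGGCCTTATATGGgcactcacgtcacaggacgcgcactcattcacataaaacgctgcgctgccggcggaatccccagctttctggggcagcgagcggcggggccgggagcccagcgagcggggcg
Dusp1 promoter, chr17:26508423-26508722, reverse strand: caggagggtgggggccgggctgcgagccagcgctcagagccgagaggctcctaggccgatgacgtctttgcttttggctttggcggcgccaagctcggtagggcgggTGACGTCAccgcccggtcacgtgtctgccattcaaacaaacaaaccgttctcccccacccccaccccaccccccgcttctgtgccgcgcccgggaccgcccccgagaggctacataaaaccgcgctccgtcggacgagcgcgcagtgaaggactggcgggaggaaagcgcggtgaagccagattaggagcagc
Nr4a1 promoter, chr15:101266596-101266895, forward strand: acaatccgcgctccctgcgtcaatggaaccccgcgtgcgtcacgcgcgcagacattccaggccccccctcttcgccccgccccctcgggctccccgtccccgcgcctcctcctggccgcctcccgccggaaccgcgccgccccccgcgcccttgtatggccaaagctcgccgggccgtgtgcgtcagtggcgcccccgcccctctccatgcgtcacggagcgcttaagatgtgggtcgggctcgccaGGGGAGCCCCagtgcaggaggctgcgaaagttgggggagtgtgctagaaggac
Btg1 promoter, chr10:96616751-96617050, forward strand: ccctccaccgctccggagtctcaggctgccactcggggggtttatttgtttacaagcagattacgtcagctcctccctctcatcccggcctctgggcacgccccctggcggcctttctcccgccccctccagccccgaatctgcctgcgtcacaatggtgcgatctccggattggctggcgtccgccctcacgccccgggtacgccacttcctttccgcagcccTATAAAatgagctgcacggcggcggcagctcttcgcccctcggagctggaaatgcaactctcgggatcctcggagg

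The capitals in the Dusp5 window mark 2 matches to the CArG box, the site of SRF, which lie side by side 82 and 72 bases before the start site (CCATATTTGG and CCTTATATGG). Those in the Dusp1 window mark the full cyclic AMP response element TGACGTCA, 143 bases before the start. A match to the NF-kB motif is marked at the start of Nr4a1, and the TATAAA box 26 bases before the start of Btg1. The windows of Klf2 and Mcl1 held none of these 4 motifs, nor TGANTCA or GAANNTTC, and did hold the GC box. These are matches of letters in a window, not sites shown to be bound.

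Over the 31 members with a window used, the CArG box was in windows of 3 genes (Dusp5, Egr2 and Zfp36). It was in 15% of the 40 member windows (6 windows of these 3 genes) and in 1.63% of all 32851 promoter windows. TGACGTCA was in windows of Btg2, Dusp1 and Ppp1r15a (7.5% of member windows, 1.79% of all windows). The NF-kB motif was in windows of 9 genes, among them Nfkbia, Tnfaip3, Ier3 and Fos (22.5% of member windows, 8.46% of all). TGANTCA, the AP-1 site, was in 3 genes' windows (7.5% of member windows, 7.81% of all). TATAAA was in those of 8 genes (20% and 13.6%) and the GC box GGGCGG in those of 26 (70% and 35.7%). The heat shock letters GAANNTTC were in windows of 4 genes, Hspa1a, Hspa1b, Jun and Fosl2 (10% and 7.86%). Motifs can overlap in a window, and these shares are descriptions without a test. A gene with several start sites counts once for each window. All windows cover 27025 symbols, among them genes not tested here, so they are not matched to the members in expression. Windows of Egr1 and of Ier2, a member that passed, were not analysed here, so the counts and shares do not cover them.

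The members also shared a compact build that the list did not use. Their genes spanned a median of 4235 bases, from 1240 (Ier3) to 47744 (Atf3), while the other 11459 protein-coding genes tested had a median of 23022. The longest protein-coding GENCODE vM21 transcript had a median of 3 exons in the members and 9 in 11364 other genes. In its 3' untranslated region 18 of 35 members held the AU-rich heptamer TATTTAT, a letter pattern of short-lived mRNAs, as did 3185 of the 11364 others. The genes with it included Ppp1r15a and Ier3 (4 overlapping matches each), Dusp1, Mcl1, Zfp36, Zfp36l1 and Fosl2 (3 each) and Fos (2). Of the 7 that passed, Dusp1, Mcl1 and Klf2 held it, and Dusp5, Btg1, Nr4a1 and Ier2 held 0. Median lengths of that region were close, 1109 bases in the members and 1046 in the others. By position, 5 members lie on chromosome 8 (Klf2, Ier2, Junb, Jund and Dnajb1), with 312 kb between Ier2 and Junb, and 5 on chromosome 10.

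BTG proteins slow proliferation and recruit the machinery that shortens mRNA tails, while ZFP36 proteins bind AU-rich mRNAs and speed their decay. Btg1 (ENSMUSG00000036478.8, mm10 chromosome 10, 96617006 to 96622809, forward strand) was the tightest of the 7. It held 10655, 11476 and 9417 normalized counts in WT, 4117, 4081 and 4316 in Csf1r_het, 4110, 4901 and 4477 in Csf2_het and 4948 and 6024 in Dhet. All 8 heterozygous libraries were far below the lowest WT library. Btg1 fell 2.51-fold in Csf1r_het (log2 fold change -1.33, SE 0.24, limma adjusted p = 0.0281) and 2.34-fold in Csf2_het (-1.22, SE 0.24, limma adjusted p = 0.0155), and it did not pass in Dhet (-0.94, SE 0.27, limma adjusted p = 0.223). Its highest adjusted p with 1 library left out was 0.128 in Csf1r_het (without WT replicate 1) and 0.0892 in Csf2_het (without Csf2_het replicate 1).

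The relative Btg2 did not pass. It averaged 5262 ± 1210 (SD, n = 3) in WT, 2445 ± 674 (n = 3) in Csf1r_het and 3468 ± 1127 (n = 3) in Csf2_het, and Dhet held 8098 and 3515. Zfp36, also known as tristetraprolin, held 6717, 2618 and 3815 in WT and its highest value, 10059, in Dhet replicate 1. Its log2 fold changes were -0.69, -0.57 and 0.28. Zfp36l1 had another pattern, with 972 to 1645 in WT, 1093 to 2157 in Csf1r_het, 1294 to 3049 in Csf2_het and 1102 and 1133 in Dhet (0.36, 0.83 and -0.21). None of these passed.

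Among the remaining quick responders, Ier2 (ENSMUSG00000053560.4, mm10 chromosome 8, 84661331 to 84662852, reverse strand), a small nuclear protein gene induced with Fos, held 4107, 1923 and 2920 normalized counts in WT. It held 1323, 744 and 964 in Csf1r_het, 716, 1076 and 796 in Csf2_het, and 2076 and 1447 in Dhet. The single heterozygotes lay below all WT libraries, and Dhet replicate 1 lay above the lowest of them. Ier2 fell 3.35-fold in Csf2_het (log2 fold change -1.74, SE 0.35, limma adjusted p = 0.0173; 0.0972 without WT replicate 1). It did not pass in Csf1r_het (-1.53, SE 0.35, limma adjusted p = 0.0556) or Dhet (-0.72, SE 0.40, limma adjusted p = 0.571).

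Csrnp1, a nuclear protein gene induced by AXIN1, had 163 to 263 in WT and 47.5 to 66.7 in Csf1r_het, with no overlap, and a log2 fold change of -1.78 that did not pass (limma adjusted p = 0.168). Its values in Csf2_het (105 to 204) and Dhet (105 and 176) overlapped WT. Ier3, a survival gene under NF-kB, Ier5, a partner of the heat shock factor HSF1, and Trib1, a pseudokinase that guides protein degradation, had log2 fold changes between -0.65 and 0.44 in the 3 groups. Rhob, an early-response GTPase, ran the other way in Csf2_het, with 971, 1539 and 2131 in WT and 2139, 2854 and 4089 in Csf2_het (0.99, SE 0.44, limma adjusted p = 0.261). Its highest WT value and its lowest Csf2_het value nearly met.

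MCL1 is a short-lived survival protein of the BCL2 family. Mcl1 (ENSMUSG00000038612.16, mm10 chromosome 3, 95658788 to 95663176, forward strand) held 11820, 11627 and 8067 normalized counts in WT, 3950, 6034 and 3785 in Csf1r_het, 4235, 4069 and 3564 in Csf2_het and 7086 and 3326 in Dhet. All heterozygous libraries were below the lowest WT library, with Dhet replicate 1 the nearest to it. Mcl1 fell 2.62-fold in Csf2_het (log2 fold change -1.39, SE 0.33, limma adjusted p = 0.036; 0.14 without WT replicate 1). In Csf1r_het (-1.21, limma adjusted p = 0.0987) and Dhet (-1.09, limma adjusted p = 0.335) it did not pass.

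Hspa1a and Hspa1b encode the inducible heat shock protein HSP70 and are the members most tied to heat and protein damage. They lie 9.95 kb apart on chromosome 17, and their coding sequences were 99.4% identical, so the split of reads between them is uncertain. Hspa1a held 1065, 841 and 745 normalized counts in WT, 252, 0 and 463 in Csf1r_het, 437, 397 and 356 in Csf2_het, and 701 and 49.4 in Dhet. Hspa1b held 1447, 963 and 987 in WT, 306, 0 and 734 in Csf1r_het, 318, 768 and 518 in Csf2_het, and 722 and 129 in Dhet. In both genes all WT libraries were above all others. Csf1r_het replicate 2 had 0 reads of either gene, which allows up to 3 reads or 4.45 normalized counts, while its value of the HSP40 co-chaperone gene Dnajb1 (1391) was the highest of the 11 libraries. The zero spread the group: the log2 fold change of Hspa1a in Csf1r_het was -4.16 (SE 1.74, limma adjusted p = 0.26) and -1.35 without that library. That of Hspa1b was -4.19 (SE 1.77, limma adjusted p = 0.263) and -1.23 without it. In Csf2_het the values were -1.14 and -1.15, and in Dhet -2.22 and -1.86, and none passed. Without Dhet replicate 1 the Dhet values were -4.12 for Hspa1a and -3.09 for Hspa1b, and without Dhet replicate 2 they were -0.32 and -0.62.

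The other stress genes were mixed. Gadd45b, a sensor of MAPK stress and DNA damage, held 253 to 542 in WT and 27.3 to 79.5 in Csf2_het without overlap (-2.73, SE 1.23, limma adjusted p = 0.271). Csf1r_het replicate 2 held 4.45 of it, beside 187 and 293 in the other libraries of its group. Ppp1r15a (GADD34), which restores translation after stress, held 665 to 833 in WT, 233 to 655 in Csf1r_het and 432 to 541 in Csf2_het, all lower than WT. Dhet libraries held more, 990 and 1487 (0.73, SE 0.46, limma adjusted p = 0.61). Dnajb1 differed little, with log2 fold changes of -0.14, -0.33 and 0.19.

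AP-1 dimers of FOS and JUN proteins are the core of the immediate early response. Fos held 4098, 3662 and 1853 normalized counts in WT, 1772, 400.1 and 1351 in Csf1r_het, 694, 1806 and 929 in Csf2_het, and 6647 and 800.4 in Dhet. The single heterozygotes lay below all WT libraries, the nearest of them by a small margin, and the Dhet libraries stood far apart, replicate 1 above every other library and replicate 2 below all WT libraries. Its log2 fold changes were -1.62 (SE 0.72, limma adjusted p = 0.293) in Csf1r_het, -1.53 (SE 0.72, limma adjusted p = 0.303) in Csf2_het and -0.39 (SE 0.81, limma adjusted p = 0.903) in Dhet. Jun held 2861, 1618 and 1773 in WT, 1769, 710 and 1433 in Csf1r_het, 897, 3106 and 2124 in Csf2_het, and 4017 and 951 in Dhet. The groups overlapped, with log2 fold changes of -0.73, -0.16 and -0.05 whose limma adjusted p ran from 0.552 to 0.989. Atf3, a stress-induced partner of JUN, was below WT (520 to 679) in all Csf2_het (210 to 490) and Dhet (350 and 375) libraries and did not pass (-0.95 and -0.76). Fosl2 was below WT there too (388 to 866 in WT, 109 to 316 in Csf2_het), with -1.79 in Csf2_het (SE 0.54, limma adjusted p = 0.0957). Junb and Jund had log2 fold changes from -0.92 to -0.06, and none passed.

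EGR factors are zinc finger proteins that respond to growth factors, CSF-1 among them. Egr1 held 306, 333 and 246 normalized counts in WT, 486, 126 and 636 in Csf1r_het, 320, 1129 and 897 in Csf2_het, and 4062 and 141 in Dhet. WT was narrow and near the bottom of the range, unlike for most members, and Csf1r_het and Dhet had libraries on both sides of it, while 0 Csf2_het libraries lay below the WT range. The log2 fold changes of Egr1 were 0.21 (SE 0.99, limma adjusted p = 0.938), 1.23 (SE 0.99, limma adjusted p = 0.584) and 1.37 (SE 1.10, limma adjusted p = 0.694). Egr2 was low, with 46.2, 40.8 and 2.29 in WT, 3.96, 0 and 44.2 in Csf1r_het and 3.13, 63.7 and 16.4 in Csf2_het. Both Dhet libraries were above all of these, with 547 and 98.9 (3.65, SE 1.84, limma adjusted p = 0.524).

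**Figure D4:**
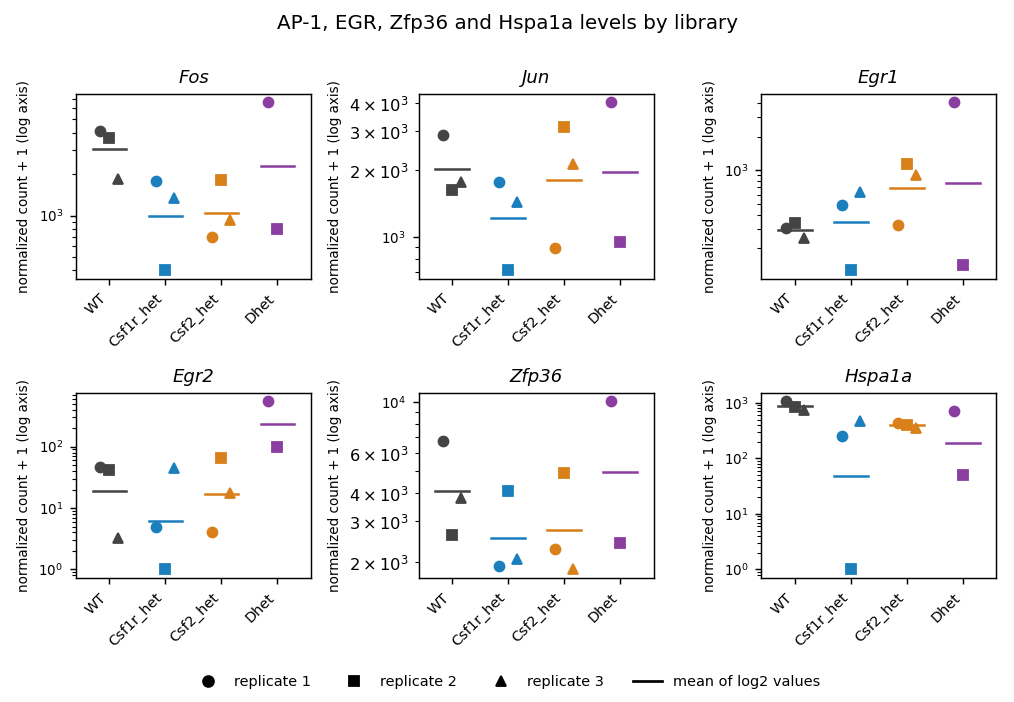
Points are libraries and bars the mean of log2 values, on a log axis of normalized count + 1, for Fos, Jun, Egr1, Egr2, Zfp36 and Hspa1a. Dhet replicate 1 (circle) is the highest library for the first 5 genes and Dhet replicate 2 (square) is far below it, at 141 against 4062 for Egr1.

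The Dhet libraries differed from each other across the members. Replicate 1 was higher than replicate 2 in 29 of 35 members and at least 2-fold higher in 16, where 13.9% of all genes were at least 2-fold higher. It was at least 2-fold lower in 0 members, where 19.8% of all genes were. The ratio was 28.5-fold for Egr1, 13.9-fold for Hspa1a, 8.30-fold for Fos, 5.55-fold for Hspa1b, 5.48-fold for Egr2 and 4.95-fold for Ier3, on the log2(value + 1) scale. Jun, Zfp36 and Tnfaip3 were 4.22, 4.18 and 4.15-fold higher. The median log2 ratio was 0.83 over the members and -0.05 over all genes. Klf2 (1730 and 1387), Nr4a1 (677 and 719), Dusp5 (189 and 141) and Btg1 (4948 and 6024) were close in both. With 1 library a side this comparison has no replicate check. The libraries also differed in age and in their sex-linked genes, so these cannot be told apart. For the median of the members in Dhet, -0.38 with both libraries, the value was -0.81 without replicate 1 and 0.02 without replicate 2.

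NF-kB feedback is the work of the inhibitor IkB-alpha (Nfkbia), the nuclear IkB protein IkB-zeta (Nfkbiz) and the ubiquitin-editing enzyme A20 (Tnfaip3). Nfkbia averaged 4405 ± 241 (SD, n = 3) in WT, 2761 ± 967 (n = 3) in Csf1r_het, 2426 ± 412 (n = 3) in Csf2_het and 2408 ± 945 (n = 2) in Dhet. All 8 heterozygous libraries were below all WT libraries, with log2 fold changes of -0.73, -0.87 and -0.93 that did not pass (limma adjusted p = 0.282, 0.169 and 0.408). Nfkbiz held 759, 837 and 618 in WT, 195, 91.9 and 360.1 in Csf1r_het, 304, 466 and 368 in Csf2_het, and 893 and 355 in Dhet. It was nearest to passing in Csf1r_het (-1.97, SE 0.53, limma adjusted p = 0.0921). Tnfaip3 overlapped WT (196 to 466) in all groups, with values from -0.26 to 0.23.

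**Figure D5:**
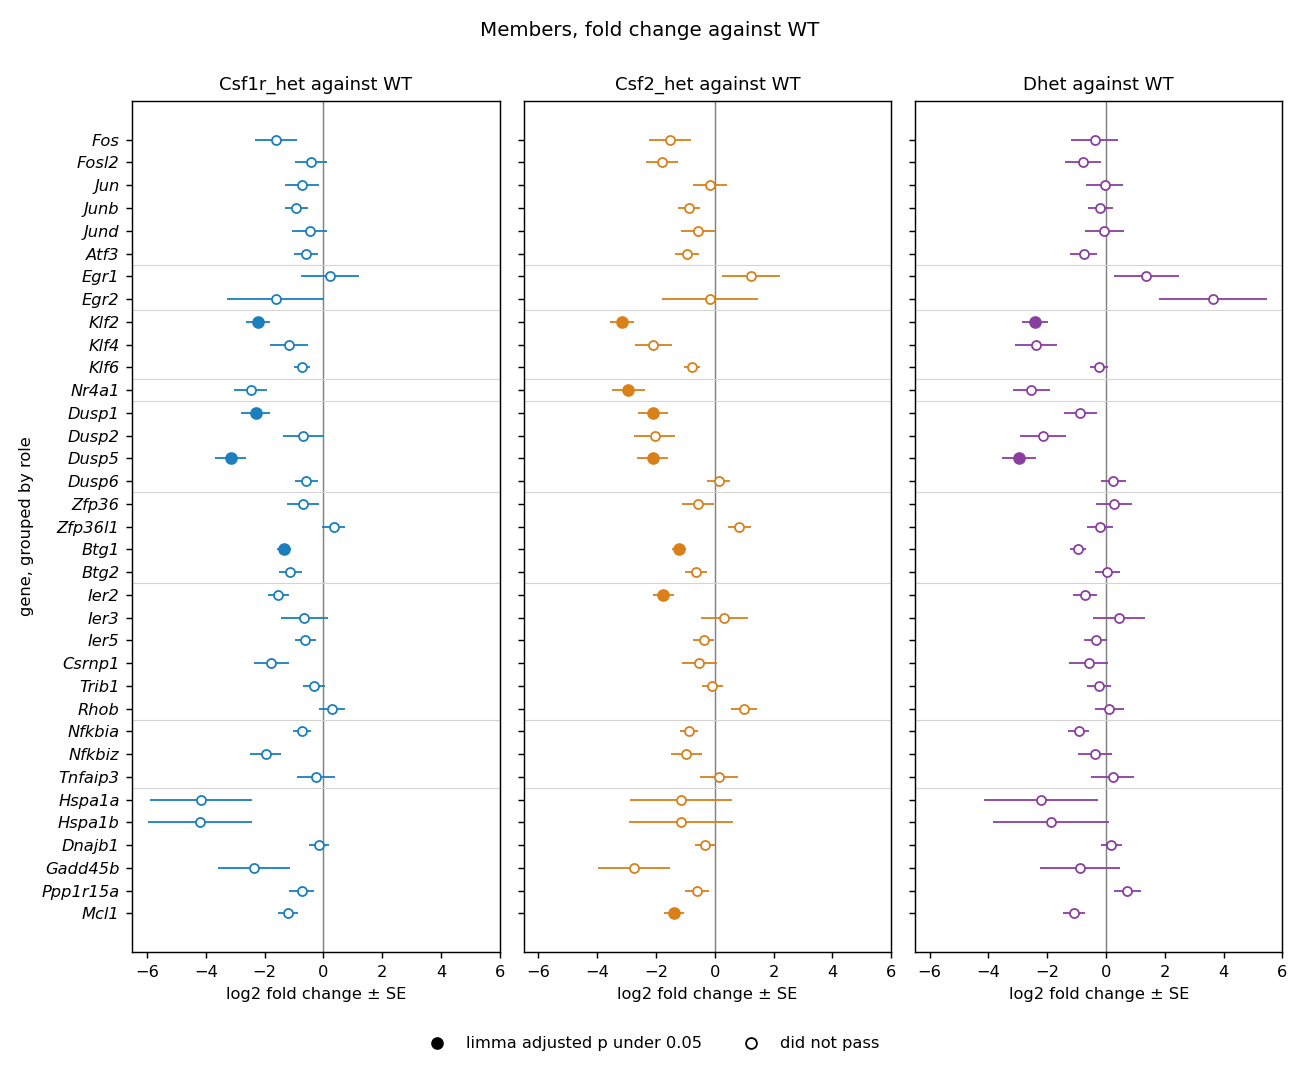
Points give the limma log2 fold change of each of the 35 members against WT and bars its SE, with filled points for an adjusted p under 0.05, in Csf1r_het, Csf2_het and Dhet. Filled points are all left of 0: 4 in Csf1r_het, 7 in Csf2_het and 2 in Dhet.

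The interaction asks whether losing both copies differs from the sum of the separate losses on the log2 scale. In 32 of 35 members it was positive, with a median of 1.51 beside 0.15 over all genes, that is, Dhet lay above the value that adding both single effects gives. It passed upwards for Dusp1 (3.53, SE 0.76, limma adjusted p = 0.0332), Klf2 (2.97, SE 0.60, limma adjusted p = 0.0275), Ier2 (2.56, SE 0.53, limma adjusted p = 0.0296) and Btg1 (1.61, SE 0.36, limma adjusted p = 0.0427), or 4 of 35, where 1.2% of all genes passed upwards and 1.85% in either direction. Downwards 0 members passed, where 0.643% of all genes did. The interaction reuses the WT and single-heterozygote values of the comparisons with WT, so it is not independent of them. A gene that is lower by a like amount in each heterozygous group comes out positive. For Klf2 the level in Dhet (1558 ± 243 SD, n = 2) was close to that in Csf1r_het (1795 ± 432, n = 3). Both single heterozygotes were several-fold below WT. The count was 0 without WT replicate 1, Csf1r_het replicate 3, Csf2_het replicate 1 or Csf2_het replicate 3. It was 1 without WT replicate 3, Csf1r_het replicate 2 or Csf2_het replicate 2. It was 3 without Csf1r_het replicate 1 and 7 without WT replicate 2. Over all genes 244 passed with all libraries. That number was 61 without WT replicate 1, 78 without Csf1r_het replicate 3, 70 without Csf2_het replicate 1 and 86 without Csf2_het replicate 3. It was 218 without WT replicate 3, 241 without Csf1r_het replicate 2 and 95 without Csf2_het replicate 2. Without Csf1r_het replicate 1 it was 106, and without WT replicate 2 it was 911. A fit without a Dhet replicate leaves 1 library in that group, so only the median of the members is given for it here. That median was 1.09 without Dhet replicate 1 and 1.88 without Dhet replicate 2.

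Against the single heterozygotes Dhet showed no member that passed. With limma 0 of 35 passed against Csf1r_het (5 at an unadjusted p under 0.05, and 0 with edgeR and with DESeq2) and 0 against Csf2_het (4 unadjusted, and 0 with edgeR and with DESeq2), where 0.00756% and 0.0227% of all genes passed. Of all 13223 genes tested, 1390 and 1083 had an unadjusted p under 0.05 in these 2 comparisons. The 5 members with an unadjusted p under 0.05 against Csf1r_het were Egr2 (5.27), Nfkbiz (1.59), Ppp1r15a (1.47), Dusp1 (1.43) and Btg2 (1.17). The 4 against Csf2_het were Ppp1r15a (1.32), Dusp1 (1.23), Ier2 (1.03) and Zfp36l1 (-1.03). The members' median was 0.49 against Csf1r_het and 0.28 against Csf2_het, and without Dhet replicate 1 it was -0.02 and -0.07.

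Further genes of the same pathways were taken from a list of 82, of which 69 were in the table and tested. Of these, 2 fell in Csf1r_het, 7 in Csf2_het and 1 in Dhet, and 0 rose in any. Of all genes, 0.885%, 2.84% and 0.499% fell in these groups, and 0.431%, 0.809% and 0.0303% rose. The medians of the 69 were -0.58, -0.50 and -0.39, beside -0.12, -0.02 and 0.02 over all genes. In Csf1r_het and in Csf2_het the genes that fell included Nfil3, a repressor of the bZIP family (log2 fold change -2.85 and -2.55), and Klf10, a TGF-beta inducible KLF factor (-2.33 and -2.31). The others in Csf2_het were Bcl3, a nuclear IkB protein (-3.24), the NF-kB subunit Nfkb2 (-2.08), Klf13 (-1.95), the repressor Bcl6 (-1.83) and the IkB kinase Ikbkb (-1.78). Bcl6 also fell in Dhet (-2.38, limma adjusted p = 0.05). Of 22 upstream kinases and factors, 0, 2 and 0 fell in the 3 groups, and the 12 other heat shock genes had medians of 0.05, 0.03 and -0.005 with 0 that passed. For the interaction 1 of the 69 passed, Nfil3 (3.51, SE 0.68), where 1.2% of all genes passed upwards.

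Markers of several other cells also differed between the groups. Shares of all genes that fell were 0.885% in Csf1r_het, 2.84% in Csf2_het and 0.499% in Dhet. Those that rose were 0.431%, 0.809% and 0.0303%. For the interaction 1.2% of all genes passed upwards and 0.643% downwards. Of 10 monocyte markers, 10, 10 and 9 had a negative log2 fold change in Csf1r_het, Csf2_het and Dhet, and 1, 9 and 2 fell, with medians of -1.30, -2.82 and -1.58. For the interaction all 10 were positive, with a median of 2.94, and 3 passed. Ccr2, the chemokine receptor of inflammatory monocytes, passed in Csf2_het (-3.53, SE 0.45) and for the interaction (3.23, SE 0.68). Treml4, typical of patrolling monocytes, which depend on Nr4a1, fell in all 3 groups (-1.88, -2.73 and -3.0). Vcan was at 0 in Csf2_het replicates 1 and 3 and Dhet replicate 1, and the other 9 markers were above 0 in every library. Summed neutrophil markers ran from 42441 to 724297 in WT, 26327 to 447117 in Csf1r_het, 109609 to 190190 in Csf2_het and 630010 to 710122 in Dhet. Of the 8 neutrophil markers, 8 were positive in Dhet against WT and 0 passed in any comparison. Microglia markers ran the other way: all 10 had a positive log2 fold change in each of the 3 groups, with medians of 0.80, 1.36 and 1.04, and a negative interaction, with a median of -1.15. Of these, P2ry12, Sall1 and Siglech rose in Csf2_het and no other passed in any of these 4 contrasts. All 6 B cell markers were negative in each group, with medians of -0.96, -1.85 and -1.03, and 0 passed. Of 6 choroid plexus markers, 6, 6 and 5 were positive in the 3 groups, with medians of 1.18, 1.14 and 0.13, and 1 rose in Csf1r_het. Their interaction was negative in all 6 (median -2.27), and 1 passed. Of 5 border macrophage markers tested, 1 fell in Csf2_het and 1 passed upwards for the interaction. No marker of endothelium, T and NK cells, neurons, astrocytes, oligodendrocytes or erythroid cells passed in these contrasts. The part of these cells in the results for the members was not tested.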

How the data were processed

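Bulk RNA was measured in 11 libraries of sorted microglia. The submitters' processing notes name kallisto 0.43.1, mm10 and DESeq2 without its version. The values the authors deposited are a signal: gene counts scaled by library size factors, as their whole-number steps show, with 100% of values whole within 0.02 reads once the step is removed. Recovered reads gave the depth.

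Genes with a mean of at least 10 were tested (13223, with 1516 left out) on log2(value + 1), which understates folds of low genes. One limma model with trend held all 4 groups (7 residual and 5.90 prior degrees of freedom), with 6 contrasts and Benjamini-Hochberg adjustment over all genes tested. The procedure was tested on simulated counts, with the same spread setting for every gene and no library that stands apart. That simulation therefore does not bear on how far the calls rest on single libraries. Software was R 4.3.3 with limma 3.58.1, edgeR 4.0.16 (13703 genes of recovered reads) and DESeq2 1.42.0. Another 12 settings and 11 fits with a library left out were tried.

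Values in every library are given for members called in any contrast and for Fos, Jun, Egr1, Dusp1, Klf2, Nr4a1, Hspa1a and Hspa1b. Further pathway genes are named where called. Single values of other members, such as Egr2, were picked with their results in view. The members, lists and tests were chosen with earlier results of these data known. The limit given for genes at 0 covers counting error only.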

Additional observations from a re-analysis of the deposited data

Results flagged for a closer look

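For 4 members the interaction term of the limma fit passed, a term that reuses the WT and single-heterozygote values of the comparisons with WT. The log2 values were 2.97 for Klf2, 2.56 for Ier2, 3.53 for Dusp1 and 1.61 for Btg1. Klf2 was 4.70-fold lower in Csf1r_het than in WT, a call lost without WT replicate 1, any Csf1r_het library or Csf2_het replicate 2. Dhet against Csf2_het gave a log2 value of 0.74 for Klf2 (SE 0.45, limma adjusted p = 0.717). For Dusp1 the latter value was 1.23, for Ier2 1.03 and for Btg1 0.28. Without Dhet replicate 1 the interaction was 2.6 for Dusp1 and 2.30 for Ier2, with limma adjusted p of 0.16 and 0.139, and 2.81 for Klf2 (0.128). Groups of 2 or 3 libraries are too small for a check of single libraries that stand apart.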

How the results depend on the processing

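Only 1 of the 17 gene calls given, Klf2 in Csf2_het, passed in all 11 fits with a library left out and in all 12 other alternatives. The number of members that passed ran, with 1 library left out, from 0 to 6 in Csf1r_het, 1 to 8 in Csf2_het, 0 to 2 in Dhet and 0 to 7 for the interaction. For Dhet against either single heterozygote it was 0 in each such fit that kept both Dhet libraries. In these fits 2 to 7 members had an unadjusted p under 0.05 against Csf1r_het and 1 to 5 against Csf2_het. Of all genes, 1199 to 2112 and 748 to 1510 did. With 4 and 7 and 2 as the counts in Csf1r_het, Csf2_het and Dhet, edgeR gave 2 in Csf1r_het and 0 in Dhet, and DESeq2 gave 9 in Csf1r_het and 5 in Dhet. With only the groups compared in the fit, the counts were 0 in Csf1r_het, 4 in Csf2_het and 0 in Dhet, where 0, 330 and 0 of all genes passed. With only 21-month-old mice they were 0, 3 and 1 (Egr1, upwards) and 0 for the interaction, with a single Csf1r_het and a single Dhet library assumed to vary like the other groups. Over all genes 0, 268, 150 and 0 passed there. With no trend in the prior they were 0, 1, 0 and 0, where 0, 197, 6 and 26 of all genes passed, and without a filter on low values Dhet had 1. The cause was not tested. Other pseudocounts, filters and scalings otherwise left these counts within 1.5 times. Centring each library on its median moved the median of all genes in Csf1r_het from -0.12 to 0.006.

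Replicate numbers were also fitted as a block. Of 15 pairs of libraries with the same number in different groups, 0 deviated together with a correlation above 0.1 (-0.21 to 0.06), and 0 of 11 libraries correlated best with its own number, so the numbers do not pair the libraries. With the replicate block the counts were 2 in Csf1r_het, 4 in Csf2_het, 1 in Dhet and 0 for the interaction. Over all genes 28, 256, 48 and 14 passed with it. Jun in Dhet turned to 0.0017 in that fit.

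Signs turned in values that had not passed. With 1 library left out, the median of the members in Dhet ran from -0.81 (without Dhet replicate 1) to 0.019 (without Dhet replicate 2, and with only 21-month-old mice). Against Csf1r_het it ran from -0.024 to 0.82 and against Csf2_het from -0.073 to 0.83, lowest without Dhet replicate 1 and highest without Dhet replicate 2. Egr1 in Csf1r_het was -0.045 without Csf1r_het replicate 1 and -0.24 without Csf1r_het replicate 3, with a highest value of 0.92 without Csf1r_het replicate 2. In Dhet, Egr1 was -1.04 without Dhet replicate 1 and 3.79 without Dhet replicate 2. Jun in Csf2_het was 0.022 with edgeR, 0.032 with DESeq2, 0.095 without WT replicate 1 and 0.35 without Csf2_het replicate 1, with a lowest value of -0.55 without Csf2_het replicate 2. In Dhet, Jun was 0.25 with edgeR, 0.27 with DESeq2, 0.21 without WT replicate 1 and 0.99 without Dhet replicate 2 and with only 21-month-old mice. Fos in Dhet was 0.21 with edgeR, 0.23 with DESeq2 and 1.13 without Dhet replicate 2 and with only 21-month-old mice, and Dusp1 was 0.057 in the latter pair of fits. Without Dhet replicate 1 these were -1.08 for Jun, -1.92 for Fos and -1.81 for Dusp1. For depth, 23 of the 35 members had at least 100 reads in every library.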
